A study of Homo sapiens with 8 samples.

Results

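The regions described here are 1483 sites at the ends of protein-coding genes where Flag-tagged ARID1A gave a called peak in all 6 ChIP lists of the study, the 2 lists of wild-type protein and the 4 lists of mutant protein. They were chosen by the peak calls themselves. Peaks of the 2 wild-type lists that overlapped by at least 1 bp were merged into 16157 WT regions, 9753 of which lay no more than 1 kb from a start or an end of protein-coding genes in RefSeq (GRCh38). Of those 9753 gene-end WT regions, 1483 (15.2%) also overlapped a peak in each of the 4 mutant lists and are called kept regions here. Presence of a mutant peak and the distance to a gene end are therefore properties of the choice and not findings. A further 5418 gene-end WT regions (55.6%) overlapped a peak in 1 to 3 mutant lists, and 2852 (29.2%) overlapped none and are called lost. WT regions farther than 1 kb from any gene end are called distal, and 625 of 6404 distal regions (9.76%) had a peak in all 4 mutant lists.

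All libraries came from Huh7, a human hepatocellular carcinoma line, in which the endogenous ARID1A gene had been knocked out and a Flag-tagged ARID1A was stably expressed from a lentivirus. The WT group carried wild-type ARID1A, the V2084D group carried the V2084D substitution, and the V2084D_shSTUB1 group carried the V2084D protein together with knockdown of STUB1, with 2 Flag ChIP libraries in each of the 3 groups. Within the list files the peak names of all 6 libraries carry the tag 24KO, those of WT and V2084D the tag shEV and those of V2084D_shSTUB1 the tag sh183. The labels also name 2 input libraries of the WT cells, which were not analysed here. The tagged protein was overexpressed in a knockout background, and nothing in the labels says whether the knockout was 1 clone or whether the paired libraries of each group were grown as separate cultures. Any p-value below thus rests only on the libraries compared, 2 against 2, and the spread among them could be technical. Peak lists measure no expression, so the cell type given by the labels could not be checked against marker genes.

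ARID1A is the largest subunit of the canonical BAF form of the SWI/SNF complex, an ATP-driven machine that slides and evicts nucleosomes and opens chromatin at promoters and enhancers. A promoter is the stretch around a gene start where RNA polymerase II assembles, and most promoters of broadly expressed genes lie in CpG islands and are free of a nucleosome just ahead of the start. STUB1, also known as CHIP, is a ubiquitin ligase that works with heat shock chaperones and marks misfolded client proteins for the proteasome. ARID1A is often mutated in liver cancer and other tumours.

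The promoters below, from RefSeq (GRCh38.p14), are shown because they lie at some of the kept regions with the highest ranks in all 6 libraries (TXLNA, EEF1A1, AIMP2, NELFB, NFYC and HIGD2A), at kept regions that stood higher in every mutant library than in WT (EPS15 and FOXO6) and at kept regions that stood lower (DDX55 and RBX1). Each line gives the 250 bases before the gene start on the strand of the gene, 5′ to 3′. Capitals mark matches to any of 12 short motifs, read on both strands and allowed to overlap: GGGCGGG (bound by SP and KLF factors), CCGGAAG (ETS), GCGCATGCG (NRF1), CCAAT (NFY), TGACGTCA (CRE), TGANTCA (AP-1), AAGATGGC (YY1), CACGTG (E-box), TCTCGCGA (ZBTB33 type), TATAAA (bound by TBP), GGAATG (TEAD) and TGTTTAC (FOXA). The positions are chr1:32179425-32179674 (TXLNA, plus strand), chr6:73521033-73521282 (EEF1A1, minus strand), chr7:6009022-6009271 (AIMP2, plus strand), chr9:137255077-137255326 (NELFB, plus strand), chr1:40691454-40691703 (NFYC, plus strand), chr5:176388501-176388750 (HIGD2A, plus strand), chr1:51519267-51519516 (EPS15, minus strand), chr1:41361184-41361433 (FOXO6, plus strand), chr12:123601849-123602098 (DDX55, plus strand) and chr22:40951128-40951377 (RBX1, plus strand).
TXLNA: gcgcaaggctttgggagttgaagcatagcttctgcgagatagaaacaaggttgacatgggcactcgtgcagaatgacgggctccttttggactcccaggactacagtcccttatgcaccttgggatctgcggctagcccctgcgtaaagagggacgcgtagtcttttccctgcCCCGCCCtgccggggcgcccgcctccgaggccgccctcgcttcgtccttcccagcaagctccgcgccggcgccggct
EEF1A1: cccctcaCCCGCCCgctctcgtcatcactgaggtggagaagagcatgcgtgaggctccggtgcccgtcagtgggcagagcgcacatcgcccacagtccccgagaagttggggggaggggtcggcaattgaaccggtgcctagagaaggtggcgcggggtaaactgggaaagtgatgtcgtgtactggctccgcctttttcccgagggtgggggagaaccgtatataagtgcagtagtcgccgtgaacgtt
AIMP2: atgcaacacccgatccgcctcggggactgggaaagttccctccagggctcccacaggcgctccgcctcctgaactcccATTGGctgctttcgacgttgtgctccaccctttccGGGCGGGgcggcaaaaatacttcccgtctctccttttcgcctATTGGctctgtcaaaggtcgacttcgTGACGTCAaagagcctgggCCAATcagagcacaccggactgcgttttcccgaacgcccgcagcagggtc
NELFB: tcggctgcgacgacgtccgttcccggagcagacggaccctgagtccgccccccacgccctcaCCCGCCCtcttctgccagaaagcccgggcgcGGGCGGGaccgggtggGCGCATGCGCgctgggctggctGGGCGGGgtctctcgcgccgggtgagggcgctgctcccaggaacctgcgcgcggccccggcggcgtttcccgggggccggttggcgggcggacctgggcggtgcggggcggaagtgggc
NFYC: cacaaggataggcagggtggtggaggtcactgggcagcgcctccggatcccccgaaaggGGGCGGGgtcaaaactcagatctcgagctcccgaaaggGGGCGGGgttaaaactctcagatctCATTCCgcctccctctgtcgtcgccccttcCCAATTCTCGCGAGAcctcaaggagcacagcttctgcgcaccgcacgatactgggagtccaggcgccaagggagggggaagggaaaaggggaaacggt
HIGD2A: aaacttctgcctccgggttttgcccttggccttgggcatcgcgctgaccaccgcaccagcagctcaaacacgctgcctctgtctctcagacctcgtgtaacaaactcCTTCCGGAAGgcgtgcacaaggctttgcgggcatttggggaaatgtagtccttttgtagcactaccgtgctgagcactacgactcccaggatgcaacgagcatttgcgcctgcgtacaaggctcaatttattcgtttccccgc
EPS15: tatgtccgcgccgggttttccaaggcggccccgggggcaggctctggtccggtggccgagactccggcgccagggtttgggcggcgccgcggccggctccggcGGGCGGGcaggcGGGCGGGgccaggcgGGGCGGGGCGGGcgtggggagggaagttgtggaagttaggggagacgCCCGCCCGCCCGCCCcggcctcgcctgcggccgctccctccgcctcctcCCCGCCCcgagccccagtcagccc
FOXO6: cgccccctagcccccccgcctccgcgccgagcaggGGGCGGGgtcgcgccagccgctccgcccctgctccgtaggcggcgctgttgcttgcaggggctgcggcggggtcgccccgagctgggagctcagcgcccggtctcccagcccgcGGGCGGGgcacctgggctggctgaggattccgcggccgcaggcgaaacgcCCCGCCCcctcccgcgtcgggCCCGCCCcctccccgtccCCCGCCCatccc
DDX55: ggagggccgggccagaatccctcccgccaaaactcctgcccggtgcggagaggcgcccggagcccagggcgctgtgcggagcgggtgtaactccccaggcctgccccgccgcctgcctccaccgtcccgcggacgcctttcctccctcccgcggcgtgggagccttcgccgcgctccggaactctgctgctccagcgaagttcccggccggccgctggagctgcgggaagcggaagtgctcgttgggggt
RBX1: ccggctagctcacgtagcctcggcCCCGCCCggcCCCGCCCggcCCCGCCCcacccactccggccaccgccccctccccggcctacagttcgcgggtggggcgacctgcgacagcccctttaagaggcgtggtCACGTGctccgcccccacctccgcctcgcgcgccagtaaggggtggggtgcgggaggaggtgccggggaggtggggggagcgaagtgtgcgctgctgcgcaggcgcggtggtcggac
The promoter of AIMP2 held CCAAT on either strand at 3 positions beside a TGACGTCA match and a GGGCGGG match. That of EPS15 held GGGCGGG on either strand at 8 positions, some of them overlapping, and that of FOXO6 at 5 separate positions. Neither strand of the DDX55 promoter held any of the 12 motifs. A match is a run of letters and not a measured binding site.

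Among the gene-end WT regions, being kept went with how strong the region was in WT. Regions were ranked by −log10 q of their best peak among the 9753, in each WT list, as a percentile from 0 (weakest) to 100. The median percentile of the kept regions was 81.5 in WT 1 and 81.3 in WT 2, against 29.8 and 29.5 for the lost regions. Of the 1489 regions whose mean percentile was over 80, 47.7% were kept and 4.30% were lost. Of the 1335 regions at 20 or under, 1.27% were kept and 60.7% were lost. Outside chromosome 1 the same 2 bands had 44.6% and 0.814% kept. Kept regions were also longer, with a median of 1328 bp and a range of 373 to 7412 bp, against a median of 799 bp for lost regions, and a longer region can meet both a gene end and a mutant peak more easily.

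**Figure D1:**
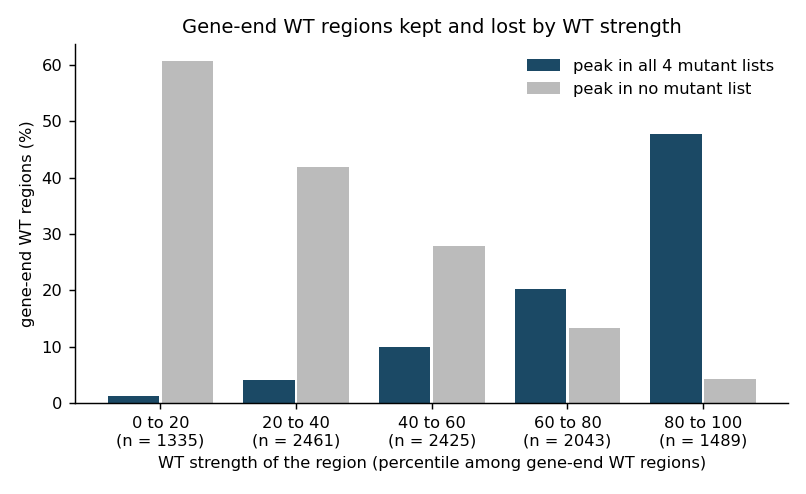
Share of gene-end WT regions (%, y axis) that had a peak in all 4 mutant lists (dark bars) or in none (grey bars), by the mean percentile of the region in the 2 WT lists (x axis, with the number of regions in each band). The dark bars rise from 1.27% in the lowest band to 47.7% in the highest while the grey bars fall from 60.7% to 4.30%.

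Like the gene-end WT regions they came from, the kept regions lay mostly at gene starts. A gene end lay inside the interval of 1365 of them (92.0%, against 80.5% of all gene-end WT regions), within 1 to 500 bp of 86 and farther than 500 bp from 32. The strand, and so the side of the gene, was known for 15842 of 20037 protein-coding genes. With these, 1231 kept regions (83.0%, against 79.1% of all) lay near a gene start, 27 (1.82%) lay near the far end of genes alone, and 205 lay near genes of unknown strand alone. Among lost regions 75.8% lay near a start and 4.66% near a far end alone. A single gene had an end near 1083 kept regions, and 2, 3 or 4 genes near 375, 23 and 2.

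Gene starts on both strands were more common at kept than at lost regions. Of the kept regions near a start, 212 (17.2%) had starts on both strands within 1 kb, against 10.6% of lost regions and 12.4% of all gene-end WT regions. Because kept regions were longer, the count was repeated with starts within 500 bp of the WT 1 summit, whatever the length of the region. It then gave 142 of 1016 kept regions (13.98%) against 130 of 1649 lost regions (7.88%). The first count used the annotated ends of genes and the second the starts of the promoter table, which can differ. Kept regions were also stronger in WT, and neither count was matched for strength. No test was made, since membership rests on the same peak calls.

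The edges of the distance rule fell as follows. The kept regions nearest to the limit from inside lay 930 bp from GPSM1, a regulator of G proteins, and 911 bp from LOC102724652. The nearest outside it lay 1019 bp from FCGR3A, an immunoglobulin receptor gene, and 1065 bp from FOXO3, a forkhead transcription factor gene. The relative rank used from here on is the percentile of a region, 0 weakest to 100 strongest, by −log10 q of its best peak among the same 2108 WT regions that had a peak in all 6 lists, so that it is set within each library. On that scale the region by GPSM1 stood at 2.21 and 2.71 in the WT libraries, and the region by FOXO3 at 77.1 and 78.4.

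Fold enrichment is the authors' value for each peak and only orders peaks within 1 list. Its median over the kept regions was 7.03 and 6.59 in the WT libraries, 4.90 and 4.93 with V2084D, and 5.28 and 4.82 in V2084D_shSTUB1. The medians of all peaks in the same lists were 4.55, 4.37, 4.50, 4.15, 4.56 and 4.34. The 6 lists held 27587, 26515, 6000, 12384, 8904 and 6663 peaks, and peaks in the kept regions made up 6.12%, 6.55%, 28.0%, 14.3%, 19.5% and 25.8% of them. Read depth is unknown from these files.

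The strongest kept regions stood high in all 6 libraries by the way they were picked, which was by their lowest relative rank. The region at the start of TXLNA, which encodes a syntaxin-binding protein of vesicle traffic (chromosome 1, 32179303 to 32180859), stood at 98.8 and 98.5 in WT, 99.1 and 99.4 with V2084D, and 99.0 and 99.7 in V2084D_shSTUB1. The region at H3-3A, which encodes the replication-independent histone H3.3, stood between 97.5 and 98.9. Both were picked for standing high in every library, so their places are a description.

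EEF1A1 encodes the elongation factor that brings aminoacyl-tRNA to the ribosome. Its region had a relative rank of 97.4 and 97.0 in WT, 99.95 and 99.91 with V2084D, and 99.95 and 100 in V2084D_shSTUB1. Its fold was 4.12 and 3.84 in WT and 8.48, 6.23, 4.54 and 11.03 in the mutant libraries. Both WT values and the 4.54 lay below the medians of the kept regions in those lists, and the other 3 lay above. Whether reads of this region also came from other copies of its sequence, in the genome or in the lentivirus, was not tested.

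The 15 strongest kept regions also included those of KMT2A, NELFB and NFYC. The region at KMT2A, a histone H3 lysine 4 methyltransferase gene (chromosome 11), stood at 95.6 and 98.1 in WT, 95.9 and 98.5 with V2084D, and 99.1 and 99.9 in V2084D_shSTUB1. The region shared by NELFB, a subunit gene of the negative elongation factor, with CIMIP2A and STPG3 stood between 92.9 and 99.3. The region of NFYC, a subunit gene of the CCAAT-binding factor NF-Y, and RIMS3 stood between 91.2 and 96.8. The NFYC promoter printed above itself holds a CCAAT match and overlapping TCTCGCGA matches, 1 on each strand.

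The other regions of this group lay at genes of varied function. AIMP2, a scaffold gene of the aminoacyl-tRNA synthetase complex, shares its region with the mismatch repair gene PMS2 on the other strand, and this region stood between 94.5 and 98.7. ZMPSTE24, the prelamin A protease gene, had a region between 94.4 and 97.8. The region of HIGD2A, a respiratory chain assembly gene, and NOP16, a nucleolar protein gene, stood at 97.7 and 97.2 in WT, 92.3 and 90.5 with V2084D, and 98.4 and 95.5 in V2084D_shSTUB1. There V2084D lay below the other 2 groups, whose values overlapped.

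NDUFS7, a complex I subunit gene, had a region between 89.7 and 99.1, and GOLM2, a Golgi membrane protein gene, had one between 91.7 and 98.0. RHOU, a small GTPase gene, had a region of 5438 bp between 89.3 and 98.9. Its best-peak summit lay at −2233 and −2230 bp from the start in WT 2 and V2084D 2. In the other libraries it lay at 1356 to 1683 bp, where plus is inside the gene, so these ranks are not of a single site. The region of ODR4 and TPR, the latter a gene of the nuclear pore basket, stood between 89.3 and 98.8. That of SLX1A, an endonuclease gene, and BOLA2B stood between 91.2 and 94.9, and since near-identical copies of both genes lie in a duplicated segment of chromosome 16, its values are uncertain.

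At the other end, 5 kept regions had low relative ranks in every library. The region of EIF4E, the cap-binding translation factor gene, stood at 0.807 and 8.42 in WT, 1.16 and 0.166 with V2084D, and 7.29 and 4.70 in V2084D_shSTUB1. The regions of CCN1, a matricellular protein gene, ZNF862 and CD276, an immune checkpoint gene, never stood above 19.8, 23.1 and 23.4. The region of SULT1A3, a sulfotransferase gene with a near-identical copy, never stood above 18.4. These ranks are among the 2108 regions with a peak in all 6 lists. Within the whole WT lists the kept regions had a median percentile of 91.0 and 90.4 by −log10 q. WT fold at ZNF862 (4.64 and 4.70) and CD276 (4.97 and 4.85) exceeded the medians of all WT peaks, 4.55 and 4.37. It lay below them at EIF4E in WT 1 (3.42), at CCN1 (4.37 and 3.53) and at SULT1A3 in WT 2 (2.55). A low relative rank was thus not always a weak WT peak.

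Peaks at the kept regions were narrower in the mutant libraries. The rule favours wide WT peaks, since a longer WT region meets a gene end and a mutant peak more easily. How much of the width difference follows from that choice was not tested. The median width of the best peak was 1119 and 1028 bp in WT, 472 and 650 bp with V2084D, and 636 and 523 bp in V2084D_shSTUB1. Both mutant groups lay below both WT libraries, and they overlapped each other. V2084D averaged 561 ± 126 bp (SD, n = 2) and WT 1074 ± 64.3 bp (SD, n = 2), a difference of −512.5 bp with single pairs of libraries between −647 and −378 bp (two-sided exact permutation test, p = 0.33, Benjamini-Hochberg adjusted over 3 pairs 0.5). With 2 libraries against 2 this test cannot reach a p smaller than 0.33, so it can place no difference between groups past a threshold of 0.05.

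V2084D_shSTUB1 differed from WT by −494 bp (exact permutation p = 0.33, adjusted 0.5) and from V2084D by 18.5 bp, with pairs between −127 and 164 bp (exact permutation p = 1). Both comparisons with WT share the same WT libraries. By region, 864 of 1483 (58.3%) had a narrower peak in all 4 mutant libraries than in either WT library, and 0 had a wider one in all 4. All peaks of the lists were also narrower in the mutants, with medians of 517 and 500 bp in WT and 392, 415, 447 and 410 bp in the mutant lists. The width difference between V2084D and WT was −572 bp with lists cut to equal length, and −201 bp where peaks had to overlap by 50% of both, a rule that bounds how far widths can differ.

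**Figure D2:**
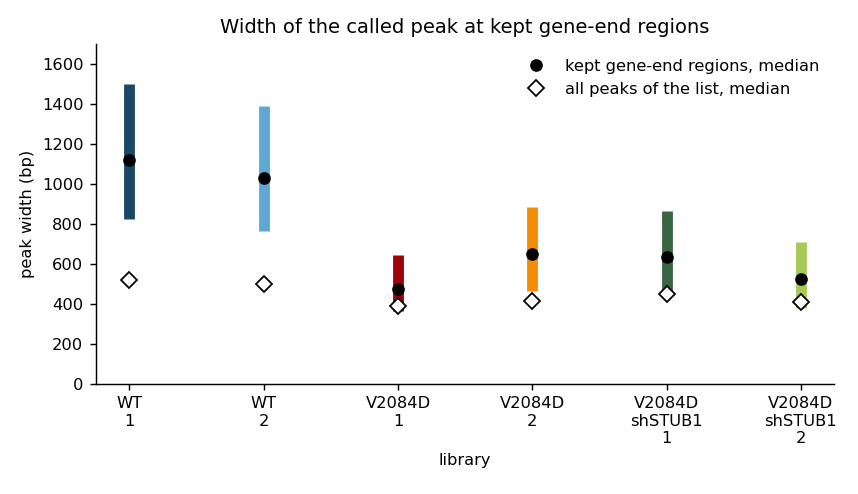
Width of the best called peak at the 1483 kept gene-end regions (y axis, bp) in each of the 6 libraries (x axis). Bars span the lower to the upper quartile over regions, filled circles mark their median and open diamonds the median of all peaks of that list. The WT medians of 1119 and 1028 bp lie above the 4 mutant medians, which run from 472 to 650 bp.

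The summits stayed near the gene starts. Over the 1231 kept regions near a start, the median distance of the summit from the nearest start, in either direction, was 200 and 206 bp in WT, 191 and 196 bp with V2084D, and 211 and 206 bp in V2084D_shSTUB1. Between 59.1% and 61.6% of summits lay within 250 bp of a start in the 6 libraries. Summits of the same region lay a median of 106 bp apart in the 2 WT lists, 146 bp in the 2 V2084D lists and 123 bp in the 2 V2084D_shSTUB1 lists. Lists of different groups lay 112 to 140 bp apart, which is inside the range within groups.

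The summit profile had a high on either side of the start, with a shallow low between them. The stretch from 50 to 100 bp before the start held 4.06% to 5.12% of summits in the 6 libraries, that from 200 to 250 bp before it 5.28% to 7.88%, and that from 100 to 150 bp after it 6.34% to 8.94%. For a comparison between groups the sides were set after the profile was seen, as more than 100 and up to 300 bp before the start and the same stretch after it. The side inside the gene held 27.5% and 23.9% of summits in WT, 19.7% and 22.6% with V2084D, and 20.8% and 19.6% in V2084D_shSTUB1. All 4 mutant libraries lay below both WT libraries, V2084D with a mean difference of −4.59 points and pairs between −7.88 and −1.30, and V2084D_shSTUB1 with −5.52 points and pairs between −7.96 and −3.09 (exact permutation p = 0.33 for each, adjusted 0.5). The side before the start held 17.5% and 21.9% in WT, 22.2% and 21.1% with V2084D, and 23.4% and 24.0% in V2084D_shSTUB1, and there WT and V2084D overlapped. V2084D_shSTUB1 lay above both there, by 2.03 points over V2084D and 3.98 over WT (exact permutation p = 0.33 for each, adjusted 0.5). Within 100 bp of the start V2084D lay 2.48 points above WT and V2084D_shSTUB1 0.690 points above it (exact permutation p = 0.33 for each). The adjustment was over 3 pairs and not over the stretches. In the same 2 WT lists the lost regions had 28.7% and 27.0% of summits inside the gene and 16.5% and 14.6% before the start.

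By relative rank the kept gene-end regions stood slightly lower in the mutant libraries. Their median was 51.5 and 51.9 in WT, 48.3 and 48.1 with V2084D, and 49.3 and 48.03 in V2084D_shSTUB1. The 4 mutant values lay below both WT values. V2084D averaged 48.2 ± 0.151 (SD, n = 2) against 51.7 ± 0.285 (SD, n = 2) in WT, a difference of −3.49 with pairs between −3.80 and −3.18 (exact permutation p = 0.33, adjusted 0.5). It was −1.05 with lists cut to equal length. V2084D_shSTUB1 differed from WT by −3.03 (exact permutation p = 0.33, adjusted 0.5), which was −0.716 among peaks of −log10 q of at least 5. From V2084D it differed by 0.463 with pairs between −0.261 and 1.19 (exact permutation p = 1), and by 3.30 among peaks of −log10 q of at least 5.

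The distal regions with peaks in all 6 lists make up the rest of the same ranking, so their median has to move the other way. It was 46.6 and 45.5 in WT, 55.4 and 54.1 with V2084D, and 52.5 and 55.4 in V2084D_shSTUB1. Members with a relative rank of 90 or over were 9.24% and 8.29% in WT and between 6.68% and 7.89% in the mutant libraries.

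Per region, 285 kept gene-end regions (19.2%) ranked higher in both V2084D libraries than in both WT libraries, where 22.8% of all 2108 regions did. Lower ranks were found at 377 (25.4%), where 23.8% of all did. Between V2084D_shSTUB1 and V2084D, 267 (18.004%) stood higher and 254 (17.1%) lower, against 18.4% and 17.9% of all. In all 4 mutant libraries against both WT libraries, 148 (9.98%) stood higher and 172 (11.6%) lower, against 12.1% and 11.3%. These shares are near those of all 2108 regions. Among distal regions alone the 6 shares were 31.2% and 19.8%, 19.4% and 19.7%, and 17.3% and 10.6%.

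The 8 regions whose relative rank was higher by the most in the mutant libraries were chosen for it, so their values are a description. The region shared by ERMAP, an erythroid membrane protein gene, and SVBP, a vasohibin-binding protein gene, stood at 20.8 and 17.2 in WT, 89.5 and 71.6 with V2084D, and 95.1 and 84.3 in V2084D_shSTUB1. FOXO6, a forkhead transcription factor gene, stood at 1.16 and 0.617 in WT, 30.6 and 79.995 with V2084D, and 67.8 and 76.0 in V2084D_shSTUB1. The region of SLC2A1, the glucose transporter GLUT1 gene, lay 585 bp from the far end of the gene and not near its start. This region stood at 14.001 and 17.9 in WT, 75.4 and 88.4 with V2084D, and 25.5 and 92.2 in V2084D_shSTUB1, so its knockdown libraries were far apart.

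The other 5 were EPS15 with OSBPL9 (an endocytic adaptor gene and a lipid transfer protein gene), ZFAND3, ATP6V0B with DPH2 (a proton pump subunit gene and a diphthamide synthesis gene), KCNJ4 (a potassium channel gene) and CNPY4. Their mean over the 4 mutant libraries exceeded that over WT by 65.7, 55.8, 55.2, 54.6 and 52.9 points. ERMAP, EPS15, FOXO6, ATP6V0B and SLC2A1 all lie between 40 and 55 Mb on chromosome 1.

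Of the 8 regions whose rank was lower by the most in the mutant libraries, 7 are described. PTPRG, a receptor tyrosine phosphatase gene (chromosome 3), had a region at 89.9 and 78.0 in WT, 18.1 and 9.52 with V2084D, and 18.5 and 6.76 in V2084D_shSTUB1. DDX55, an RNA helicase gene of ribosome assembly (chromosome 12), stood at 92.6 and 88.2 in WT, 8.19 and 30.02 with V2084D, and 3.99 and 53.4 in V2084D_shSTUB1. A region of the homeobox gene HOXC4 lay 816 bp from the far end of the gene as annotated and not near the start used here. Its best-peak summits lay 35389 and 35520 bp from that start in WT and 37475 and 35354 bp with V2084D. In V2084D_shSTUB1 they lay 37116 and 35502 bp from it, so the ranks are not all of a single site. This region stood at 80.7 and 91.2 in WT, 19.7 and 64.1 with V2084D, and 0.712 and 1.28 in V2084D_shSTUB1. Its peaks were 3888 and 3823 bp wide in WT and between 297 and 434 bp wide in the mutant libraries.

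CKAP2 (a spindle protein gene), ICAM3 with RAVER1, RBX1 (the RING subunit gene of cullin ubiquitin ligases) and ATL2 (an endoplasmic reticulum GTPase gene) differed by −58.3, −57.2, −57.2 and −56.1 points. RBX1 stood at 80.7 and 85.0 in WT, 17.6 and 12.7 with V2084D, and 68.9 and 3.61 in V2084D_shSTUB1. None of these 7 regions lay on chromosome 1.

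Between V2084D_shSTUB1 and V2084D the shares of kept regions that stood higher or lower, given above, were near those of all 2108 regions, and the extremes are given as values. ZZZ3, a subunit gene of the ATAC acetyltransferase complex, had a region at 8.80 and 14.5 in V2084D and 90.4 and 89.2 in V2084D_shSTUB1, beside 78.8 and 87.2 in WT. ARID4A, a retinoblastoma-binding protein gene, went from 17.6 and 20.3 to 92.9 and 90.8, beside 85.9 and 89.2 in WT. SREBF2, the gene of a sterol-regulated transcription factor, shares its region with CCDC134 and went from 5.15 and 15.05 to 83.3 and 89.8, beside 50.6 and 82.8 in WT.

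The other 3 regions that stood higher by the most were MYG1 with PFDN5 (the latter a prefoldin subunit gene), TLE3 (a corepressor gene) and HNRNPA3 (an RNA-binding protein gene), by 72.8, 64.7 and 63.4 points. In WT these stood at 50.6 and 2.99, 52.9 and 41.1, and 46.2 and 70.2, so at MYG1 and TLE3 both knockdown libraries lay above both WT libraries. The best-peak summit at TLE3 lay at −1483 and −1504 bp from the start in WT and at −1612 and −2788 bp with V2084D. In V2084D_shSTUB1 it lay at −3735 and −3553 bp, so the TLE3 ranks are not of a single site. The regions that stood lower by the most were at NMB with WDR73, PGBD5, B3GALNT2, ODC1, SPRYD3 and HPCA, between −69.9 and −57.5 points. ODC1, the gene of the first enzyme of polyamine synthesis, stood at 73.0 and 91.2 in V2084D and 12.6 and 25.1 in V2084D_shSTUB1, beside 81.3 and 77.8 in WT. At NMB, PGBD5 and SPRYD3 the WT values were lower, at 19.8 and 6.81, 4.11 and 38.9, and 1.87 and 30.6, below both V2084D libraries. All 12 were chosen as extremes of the same 4 libraries.

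**Figure D3:**
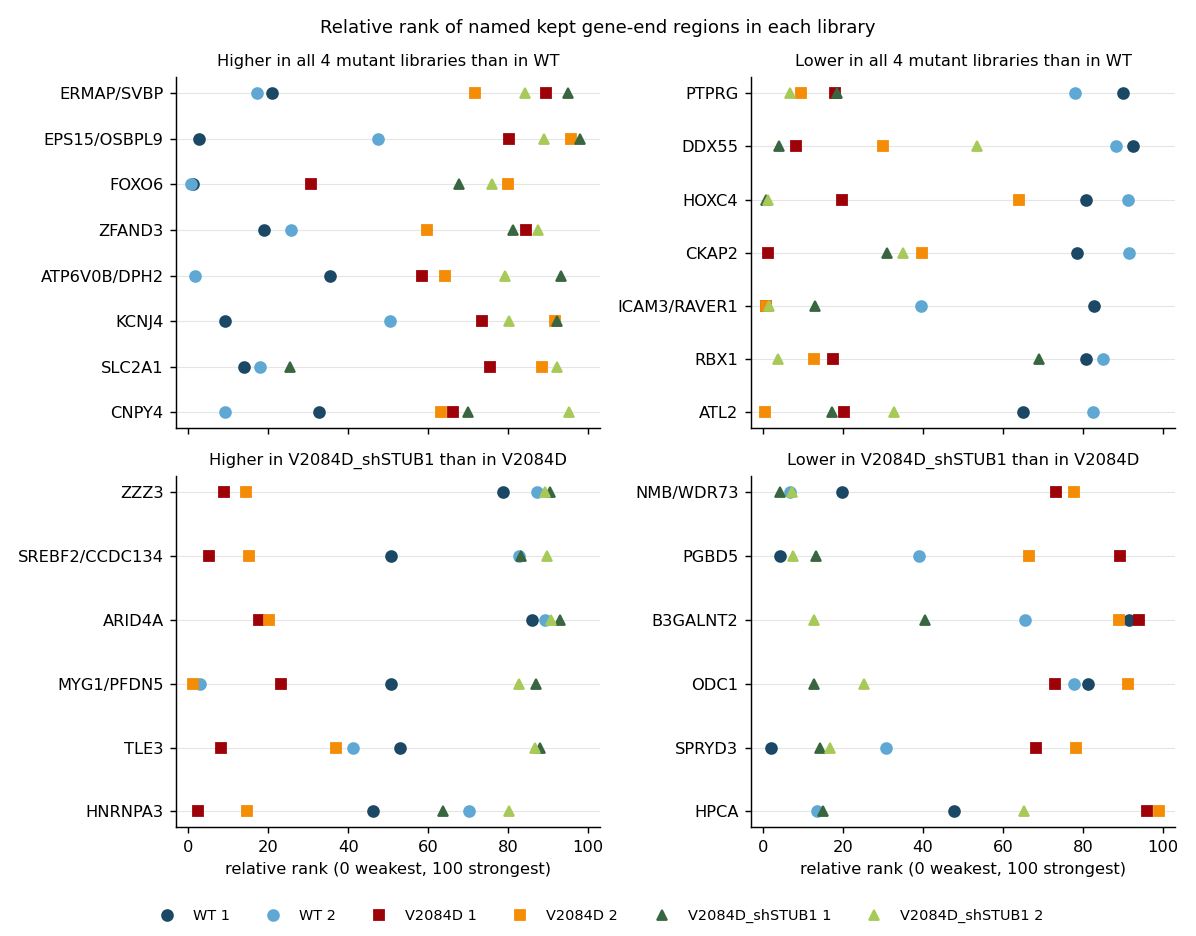
Relative rank in each of the 6 libraries (x axis, 0 weakest to 100 strongest among the 2108 regions with a peak in all lists) of the kept gene-end regions that differed most between groups, less 1 left out, chosen for those differences. Circles are WT, squares V2084D and triangles V2084D_shSTUB1. At ZZZ3 and ARID4A the V2084D squares lie between 8.80 and 20.3, and the WT and knockdown symbols at 78.8 or higher.

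The order of the kept regions was shared only in part between libraries. Over the 1483 regions Spearman's correlation was 0.565 between the 2 WT libraries, 0.330 between the 2 V2084D libraries and 0.398 between the 2 V2084D_shSTUB1 libraries. Libraries of different groups gave 0.266 to 0.371. Regions are not independent replicates, and the lists share genome and peak caller, so no p is given.

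Kept regions were unevenly spread over the chromosomes. On chromosome 1, 327 of 994 gene-end WT regions (32.9%) were kept, against 13.2% on all other chromosomes together, so that chromosome 1 held 22.1% of the kept regions and 10.2% of the gene-end WT regions. Chromosomes 15, 21, 22 and 14 followed with 23.5%, 23.5%, 22.4% and 22.3%. Among the 23 chromosomes with at least 100 gene-end WT regions, fewest were kept on chromosome 18, with 4 of 144 (2.78%), and on X, with 7 of 226 (3.10%). Among regions of a mean WT percentile over 80, 69.4% were kept on chromosome 1 and 44.6% elsewhere, with chromosome 16 higher still at 71.4%.

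Distal regions were kept more often on chromosome 1 as well, 24.5% against 8.14% elsewhere, and most often on chromosome 21, at 26.6%. Across 23 chromosomes the gene-end and distal shares had a Pearson correlation of 0.636 and a Spearman correlation of 0.568, given as a description since both rest on the same 6 lists. The X chromosome departed from this, with 3.10% of gene-end and 15.6% of distal regions kept. On chromosome 1 the median relative rank of kept gene-end regions was 45.3 and 45.7 in WT, 57.0 and 60.9 with V2084D, and 60.9 and 58.5 in V2084D_shSTUB1. All 4 mutant medians lay above both WT medians there, the opposite of the order over all kept regions.

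**Figure D4:**
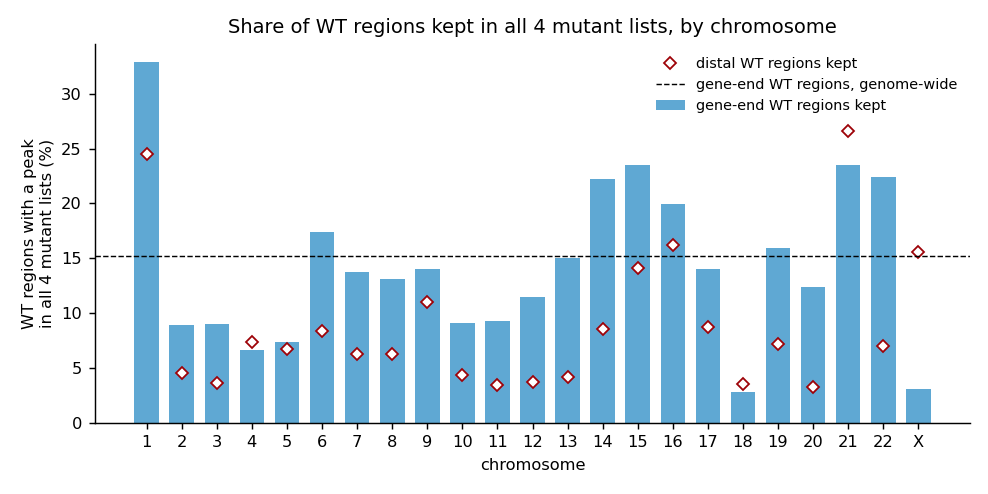
Share of gene-end WT regions with a peak in all 4 mutant lists (bars, y axis, %) for each chromosome (x axis), with the same share of distal WT regions (open diamonds) and the genome-wide gene-end share of 15.2% (dashed line). Chromosome 1 stands highest at 32.9%, and chromosomes 18 and X stand lowest.

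Part of this lay in a few blocks. The genome was split into 5 Mb windows, and among the 304 that averaged 30 or more WT peaks, 9 held more than 2 times the WT share of peaks in each of the 4 mutant lists. They were 5 adjoining windows from 30 to 55 Mb, the windows from 225 to 230 and from 235 to 240 Mb on chromosome 1, and both windows from 0 to 10 Mb on chromosome 6. In them 179 of 284 gene-end WT regions (63.0%) were kept, against 13.8% outside. The window from 225 to 230 Mb, which holds H3-3A and RHOU, kept 34 of 42 (81.0%).

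Kept regions in these windows had a median relative rank of 39.8 and 36.9 in WT, 64.8 and 71.0 with V2084D, and 66.7 and 63.6 in V2084D_shSTUB1. Outside them the medians were 52.9 and 54.1, 46.3 and 45.1, and 46.7 and 45.5. Of the 148 kept regions that ranked higher in all 4 mutant libraries, 58 (39.2%) lay on chromosome 1 and 50 (33.8%) in the windows. Of the 172 that ranked lower, 20 lay on chromosome 1 and 3 in the windows. The windows were defined from the same lists, so these values are a description. The regions of TXLNA, NFYC, ZMPSTE24, H3-3A and RHOU, among the strongest described above, lie in the windows too. The labels name input libraries of the WT cells alone and these were not analysed here, so the level without immunoprecipitation in these windows was not tested.

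By gene, 1848 of the 10300 protein-coding genes with a gene-end WT region (17.9%) had a kept one. Translation initiation and elongation factor genes had 21 of 55 (38.2%), the largest share among the 18 lists with at least 25 such genes. The region of EIF2S1, the alpha subunit gene of initiation factor 2, stood at 86.7 and 91.4 in WT, 93.7 and 73.4 with V2084D, and 79.0 and 64.6 in V2084D_shSTUB1. EIF1, a start codon selection factor gene, had a region at 68.6 and 64.0 in WT and between 67.7 and 95.8 in the mutant libraries. Cytosolic ribosomal protein genes had 16 of 71 (22.5%), led by RPS2, RPLP2 and RPL4. Mitochondrial ribosomal protein genes had 16 of 59 (27.1%), led by MRPL48, MRPS15 and MRPL55. The lists are fixed sets of gene names, given as counts and shares with no set test.

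Some other lists also had shares above that of all genes, with no test of the difference. Immediate-early and AP-1 genes had 8 of 25 (32.0%), among them FOSB, JUND and JUN. Histone methyltransferase and demethylase genes had 14 of 45 (31.1%), led by KMT2A, SETD1A and KDM4A. Splicing factor genes had 16 of 58 (27.6%), led by SRSF4, SNRPD3 and SF3A3, and RNA polymerase II machinery genes had 18 of 73 (24.7%), led by NELFB, GTF2H1 and POLR2L. SRSF4, an SR protein gene, stood at 95.3 and 95.9 in WT and between 82.6 and 97.2 in the mutant libraries.

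Replication-dependent histone genes had 9 of 41 (22.0%) in 6 regions, and since these genes have near-identical copies the reads may be split between them. Ubiquitin conjugation genes had 29 of 137 (21.2%), led by UBE3B, FBXL19 and UBE3C. Nuclear oxidative phosphorylation genes had 11 of 55 (20%), cell cycle and replication genes 12 of 61 (19.7%), and numbered ZNF genes 59 of 308 (19.2%), led by ZNF384, ZNF341 and ZNF653. These last 3 shares are near the 17.9% of all genes.

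Shares below 17.9% were found for aminoacyl-tRNA synthetase genes with 5 of 31 (16.1%, which is also near it), RAB and ARF GTPase genes with 9 of 58 (15.5%), chaperone genes with 9 of 59 (15.3%) and proteasome genes with 4 of 34 (11.8%). HOX cluster genes had 3 of 32 (9.38%), all of them in the HOXC cluster. Hepatocyte secreted protein genes had a WT region at 5 of 44 genes and a kept one at C5 alone, and olfactory receptor genes had a WT region at 2 of 390.

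SWI/SNF subunit genes had 3 of 26 (11.5%). The region of SMARCD2 stood at 85.9 and 35.5 in WT, 87.4 and 86.3 with V2084D, and 80.04 and 70.8 in V2084D_shSTUB1. ARID1A itself is knocked out in these cells but is also carried by the lentivirus. The part of the lentiviral sequence in reads at this gene was not tested. The ARID1A gene had 2 kept regions. The first stood at 19.01 and 45.4 in WT, 19.3 and 42.2 with V2084D, and 84.6 and 40.2 in V2084D_shSTUB1, and the groups overlapped. The other stood at 9.07 and 30.1 in WT, 96.2 and 71.4 with V2084D, and 22.1 and 35.6 in V2084D_shSTUB1, so that there V2084D lay above both other groups. STUB1 also had 2 kept regions. The first stood at 30.5 and 55.4 in WT, 37.6 and 85.9 with V2084D, and 41.1 and 17.7 in V2084D_shSTUB1, and the groups overlapped. The other, shared with JMJD8 and WDR24, stood at 20.8 and 78.4 in WT, 79.8 and 58.8 with V2084D, and 58.1 and 8.04 in V2084D_shSTUB1. With the latter, the most gene ends within 1 kb were found at EME2 with MAPK8IP3, MRPS34 and NME3, where 6 ends lie in reach, and at the histone genes H2AC18, H3C14 and H4C15, with 5.

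The 3 longest kept regions were those of ZNF503 with LOC124902461 (7412 bp), FOXC1 (6905 bp) and NDUFB10 with RPS2 (5469 bp). FOXC1 is a forkhead developmental factor gene and ZNF503 a transcriptional repressor gene. At ZNF503 the best peak was 5139 and 5693 bp wide in WT and 310, 959, 1165 and 1096 bp wide in the mutant libraries, while its relative rank was 89.9 and 91.1 in WT and between 42.8 and 68.9 in the mutants. The regions were picked for the length of the merged WT peaks, which favours wide WT peaks, so these widths are a description.

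The promoters at the kept regions were CpG-rich and resembled those at lost ones. Over the 300 bases from 250 before to 50 after the start, the 1452 promoters at kept regions had a median GC content of 67.0% and a median ratio of observed to expected CpG of 0.870. The 2067 promoters at lost regions alone had 66.0% and 0.853, and the 7404 promoters of genes with no WT region had 57.0% and 0.435. The ratio was over 0.6 in 91.3%, 88.2% and 40.1% of these 3 sets. The promoter printed above for FOXO6 had a GC content of 81.3%, and that for HIGD2A 56.0%.

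Motif shares differed little between kept and lost promoters. GGGCGGG occurred in 57.7% of kept, 54.8% of lost and 33.1% of all 35116 promoters of the table, and CCGGAAG in 20.7%, 19.5% and 10.3%. CCAAT was found in 37.4%, 37.0% and 34.6%, CACGTG in 11.4%, 9.10% and 7.26%, and GCGCATGCG in 3.65%, 3.48% and 1.92%. TGACGTCA was found in 3.65%, 2.90% and 1.85%, AAGATGGC in 5.58%, 5.52% and 2.89%, and TCTCGCGA in 2.27%, 1.74% and 1.15%. TATAAA occurred in 5.51%, 4.50% and 11.5%, TGANTCA in 3.31%, 4.40% and 7.71%, GGAATG in 11.6%, 9.58% and 14.03%, and TGTTTAC in 1.58%, 2.52% and 3.42%. For every motif but CACGTG and TGTTTAC, the difference between all 35116 and lost promoters was larger than that between lost and kept ones. Kept and lost promoters are of protein-coding genes alone. Among the 15842 promoters of such genes, GGGCGGG occurred in 44.4%, TGACGTCA in 2.59% and TCTCGCGA in 1.75%. Against these, the statement failed for TGACGTCA and TCTCGCGA as well. These are descriptions with no test, since both sets follow from the peak calls.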

How the data were processed

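Flag ChIP-seq peak lists of 6 libraries were analysed, 2 for each of WT, V2084D and V2084D_shSTUB1. The authors deposited 1 list per library. The submitters' processing notes name MACS2, Bowtie2, Trimmomatic, Picard, SAMtools, deepTools and bedtools, and build hg38. Tool versions, options and peak-calling controls were not stated in the sources used. Each deposited list gives, per peak, a fold enrichment (a ratio), −log10 p and −log10 q, and a summit offset, all as the authors' caller wrote them, and a score that was not used. Read depth is unknown from these files, and the number of peaks in a list also varies with sequencing depth and immunoprecipitation yield.

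WT regions, gene ends, kept regions and relative ranks were computed with Python 3.11.15, pandas 2.3.3 and numpy 2.4.6, with scipy 1.17.1 for correlations, and tested on simulated lists. The best peak of a region had the highest −log10 q (ties by −log10 p, then fold). Genes, promoters and strands came from RefSeq (GRCh38.p14). The promoter table held a start for 15842 of 20037 protein-coding genes and none on chromosome 8. Groups were compared by two-sided exact permutation tests over libraries, with Benjamini-Hochberg adjustment over 3 pairs.

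The members and gene lists were chosen with earlier results of these data known. Named regions were the 15 with the highest worst rank and the 5 with the lowest best rank over the 6 lists. They were also the 8 highest and 8 lowest differences of mutant from WT libraries without overlap, and the 6 of each kind between V2084D_shSTUB1 and V2084D. The 3 longest, the 3 with most gene ends, up to 3 per gene list and 2 on each side of the 1 kb limit were added; 2 of the named regions are not reported here. The sides of the start and the 5 Mb windows were set after seeing the data. The alternatives tried were other gene-end distances, overlaps, thresholds, list lengths and rank measures, a replicate block, each library left out, and, added after seeing the data, chromosome 1 or the 9 windows left out.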

Additional observations from a re-analysis of the deposited data

How the results depend on the processing

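The number of kept gene-end regions was 735 with lists of equal length, 375 with an overlap of 50% of both peaks, 211 with −log10 q of at least 5 and 217 with fold of at least 5. Under the same 4 settings the counts of regions higher in V2084D than in WT were 150, 64, 38 and 55, and lower 173, 100, 60 and 53. Between V2084D_shSTUB1 and V2084D they were 153, 71, 47 and 44 higher, and 136, 51, 27 and 36 lower. These settings leave fewer regions. Leaving out a library in turn gave 1463 to 2156 kept regions, and, with a group then of 1 library, 317 to 742, 429 to 877, 263 to 733 and 251 to 743 for these 4 counts. Leaving out a library of V2084D, V2084D_shSTUB1 or WT moved a count of its own comparison by over 1.5 times.

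The difference between V2084D_shSTUB1 and V2084D changed sign. In width it was −3.5 bp with −log10 q of at least 5, −36.0 bp with fold of at least 5 and −60.5 to 105 bp without single libraries. In rank it was −0.195 with lists of equal length, −0.455 with an overlap of 50% and −0.189 to 1.01 without single libraries. The cause was not tested. The differences of both mutant groups from WT kept their direction in every alternative run. In rank, however, V2084D_shSTUB1 and WT libraries overlapped under 2 settings (exact permutation p = 0.67 for each). Their difference was −0.716 with −log10 q of at least 5 and −1.85 with fold of at least 5. Without chromosome 1 there were 1156 kept regions and without the 9 windows 1304, and the rank difference of V2084D from WT was −3.62 and −3.39.

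With a replicate block the differences stayed as they were and the smallest exact paired p is 0.5. Nothing in the labels pairs equal numbers, and replicate differences correlated by 0.0202, −0.00163 and −0.0184 between groups. With 2 libraries a group the exact test cannot pass a threshold, and read depth is unknown.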
